A study of Equus caballus with 4 samples.

Results

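RAB proteins are small GTPases, and the RAB GTPase genes measured here were those whose gene name on the array is RAB followed by a number and optional letters. This rule found 103 probes with 53 gene names among 43603 gene probes with 24998 names. RAB3IP fits the rule by its name but encodes Rabin8, an activator of RAB8 and no GTPase, so it was set aside and is given with the activators. The remaining 52 RAB genes had 102 probes. Genes of the family that the array lists under other names, such as RAB6A, RAB12, RAB20 and RAB7L1, fall outside the rule and were not analysed here.

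Each RAB protein switches between a GTP-bound active form and a GDP-bound inactive form, and marks a particular membrane while active. Guanine nucleotide exchange factors (GEFs) turn a RAB on, GTPase-activating proteins (GAPs) turn it off, and effectors such as tethers, sorting proteins and motor adaptors bind the active form. A prenyl group on cysteines at the carboxyl end holds the protein to the membrane. In skeletal muscle, RAB proteins of the recycling route are known for moving the glucose transporter GLUT4 to the cell surface, and early and late endosomal RABs serve receptor uptake and lysosomal breakdown.

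Expression was measured in equine satellite cells, the stem cells of skeletal muscle, isolated from m. semitendinosus and studied on day 3 of differentiation. Treated cells were kept for 24 h with 0.125 µM gamma-oryzanol (GO, ferulic acid esters of plant sterols found in rice bran oil), and 3 mM hydrogen peroxide (H2O2) was present during the last 1 h. GO was left out of the control cultures. Whether these were given H2O2 is not stated in the labels, whereas the study's methods describe them as exposed to it and to the DMSO vehicle. The cells came from young stallions, and the methods describe the choice of a single primary line, so the 4 biological replicates of each condition may be cultures of 1 line, and the p-values then measure the spread between these cultures.

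Each of 4 two-colour arrays on 1 slide held RNA of treated cells in the red channel (Cy5) and of control cells in the green channel (Cy3). A log2 ratio is red over green after normalisation to probes of like brightness, so that a negative value is a lower signal in the treated cells. No array had the dyes swapped, and dye and treatment cannot be told apart. Between 54.9% and 61.4% of gene spots were well above background on an array. Of the muscle markers 14 of 14 on the arrays were well above background in both channels on all 4 arrays. Their median log2 ratio was 0.29. Of the 14, 10 were called higher at an adjusted p under 0.05, among them MYOG, CKM and MYL1, beside 9.93% of all 13692 genes tested. The median of 0.34 over these 10 is taken over genes picked by the test. Of 5 endothelial markers, PECAM1, CDH5, VWF and KDR were not well above background on any array, nor were ADIPOQ, FABP4 and CIDEC of 4 adipocyte markers. Of the fibroblast markers, DCN, LUM and THY1 were detected on all arrays, with mean log2 ratios of −0.10, −0.43 and 0.28, of which those of LUM and THY1 passed the test. Among the immune markers, CD68 and CD14 were detected and CD3E was not; CD14 had a mean log2 ratio of −0.17 and passed the test. The part of these shifts in the RAB values was not tested, and in such bulk samples fewer cells of a type cannot be told apart from less RNA per cell.

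The probes that carry the results are 60 bases long, and several probes of a gene often cover nearly the same bases. Both RAB8A probes are shown because both passed the test; capitals mark the 59 bases they share. Their positions on the build of the array (EquCab1), on sequence not placed on a chromosome, are chrUn:216875137-216876618 and chrUn:216875138-216876619, plus strand, a span of 1482 bases for a 60-base probe.
RAB8A, brightest probe: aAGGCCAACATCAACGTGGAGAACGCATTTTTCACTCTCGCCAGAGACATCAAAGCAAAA
RAB8A, the other probe: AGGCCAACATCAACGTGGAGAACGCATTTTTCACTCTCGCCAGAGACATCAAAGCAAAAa

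RAB5B and RAB5C are close relatives whose mean log2 ratios had opposite signs, and their brightest probes hold a stretch in common. Capitals mark the longest run that both probes hold, 17 bases. Over all 561 pairs of brightest RAB probes, the longest shared run had a median of 6 bases, and in only this 1 pair was it over 12. The RAB5B probe lies at chrUn:195226997-195227391 (plus strand) and the RAB5C probe at chr11:19566420-19567022 (plus strand).
RAB5B: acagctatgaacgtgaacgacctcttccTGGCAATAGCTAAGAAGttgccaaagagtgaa
RAB5C: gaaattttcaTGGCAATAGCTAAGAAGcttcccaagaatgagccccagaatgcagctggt

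The RAB23 and RAB35 probes are shown because their letters run to a stop codon, at the end of the protein where the prenylated cysteines lie. Capitals mark, for RAB23, a cysteine codon with the 3 codons after it and the stop codon, and for RAB35, 2 cysteine codons in a row and the stop codon. The letters TGCTGCTAA of RAB35, searched on the printed strand only, occurred in 25 of 43603 gene probes (0.0573%), and the 15 letters of RAB23 in 1. The RAB23 probe lies at chr20:47638994-47639053 (minus strand) and the RAB35 probe at chr8:13783076-13783135 (plus strand).
RAB23: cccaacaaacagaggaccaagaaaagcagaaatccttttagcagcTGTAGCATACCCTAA
RAB35: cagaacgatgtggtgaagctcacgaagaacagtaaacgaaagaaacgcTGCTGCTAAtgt

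The comparison addressed which RAB transcripts differ in abundance between GO-treated cells exposed to H2O2 and control cells. Tested probes were those that exceeded background clearly on every array in at least 1 of the channels, which held for 76 of the 102 RAB probes and 34 of the 52 genes. The gene's value is that of its brightest tested probe. RAB8A, RAB11A, RAB13 and RAB23 were lower in the treated than in the control cells, and no RAB gene was higher, at an adjusted p under 0.05 in limma's test. By the study's methods the control cells were exposed to H2O2 as well. These 4 of 34 genes stand beside a background of 7.16% of 13692 genes called lower, and the 0 of 34 genes called higher beside 9.93%. By probes, 6 of 76 were lower, beside 7.59% of 24230 probes, and 0 were higher, beside 9.49%. At an unadjusted limma p under 0.05, 12 RAB genes were lower and 2 were higher, together 14 of 34 beside a background of 36.7%. The methods' t-test, the test named by the study, called 0 RAB probes in either direction after adjustment and 19 of 76 without it, beside a background of 28.6% of probes.

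**Figure D1:**
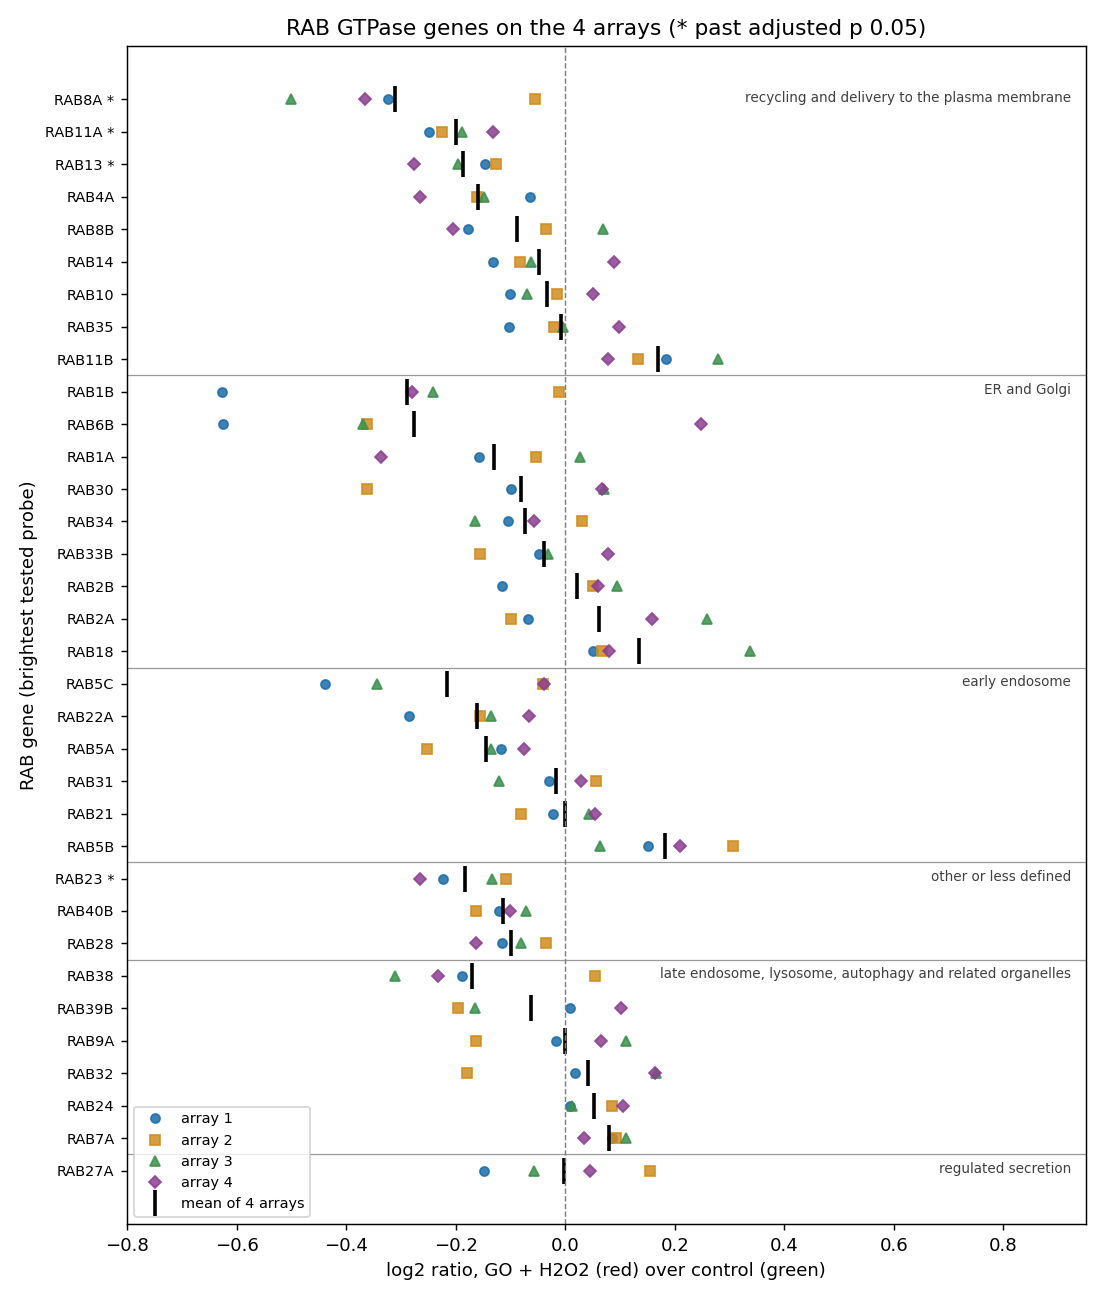
Log2 ratio of treated over control (x axis) for the brightest tested probe of each of the 34 RAB genes (y axis), with a coloured symbol for each of the 4 arrays and a black bar for their mean, grouped by step of membrane traffic. The 4 genes with an asterisk passed the test, and each lies below 0 on all 4 arrays.

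RAB8A, which directs carriers from the Golgi and recycling endosomes to the plasma membrane and the primary cilium, had the lowest mean of the 34 RAB genes. Its log2 ratios were −0.32, −0.06, −0.50 and −0.37 on replicates 1 to 4, a mean of −0.31 ± 0.19 (SD, n = 4), or 1.24-fold lower, with an adjusted p of 0.036 in limma's test. The value of replicate 2 stood well above the other 3. The other probe, shifted by 1 base, gave −0.35, −0.07, −0.39 and −0.27 with a mean of −0.27 ± 0.14 (adjusted p = 0.032 in limma's test). Both probes therefore had the same order of replicate 2 above the rest, as probes of nearly the same bases would share.

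RAB11A is the main RAB of the recycling endosome and is one of the genes that the study listed as a miRNA target on these arrays, so its value is not independent evidence of that choice. Its single probe lies at chr1:123829602-123829661 (minus strand) and holds a stop codon in each of its 3 reading frames, so that it is not wholly coding. The mean spot signals as scanned were 1783, 1569, 1157 and 1393 in the control channel and 1730, 1680, 1220 and 1400 in the treated channel on replicates 1 to 4. The raw signals of both channels were thus nearly equal on each array. After background correction and before normalisation the log2 ratios were 0.02, 0.12, 0.15 and 0.04, while the medians of 1164 probes of like brightness (within 0.2 on the log2 scale) were 0.27, 0.37, 0.34 and 0.17. After normalisation the values were −0.25, −0.23, −0.19 and −0.13, a mean of −0.20 ± 0.05 (1.15-fold lower, adjusted p = 0.027 in limma's test). RAB11A was lower than probes of like brightness on all 4 arrays, and this is the sense in which it is called lower.

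The same held for the other genes called. RAB13, known for traffic to the tight junctions of epithelia and for neurite outgrowth, had log2 ratios of −0.15, −0.13, −0.20 and −0.28, a mean of −0.19 ± 0.07 (1.14-fold lower, adjusted p = 0.035 in limma's test). RAB23, a negative regulator of Hedgehog signalling, had −0.22, −0.11, −0.13 and −0.27, a mean of −0.18 ± 0.07 (adjusted p = 0.039 in limma's test). The RAB23 probe was dim, with signals as scanned of 153 to 178 in the control channel and 126 to 152 in the treated channel. Its mean was −0.32 with Agilent's processed signals and −0.17 without background correction. Before normalisation the ratio of RAB13 was above 0 on 3 of 4 arrays, that of RAB23 on 3 and that of RAB8A on 1. On all 4 arrays each of them lay below the median of its like probes.

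These calls were small in size and rested on few arrays. No tested RAB probe reached a 1.3-fold change, the limit in the study's methods, with or without an adjusted p under 0.05. The largest was 1.25-fold, a probe of RAB6B, and 1.42% of all probes passed with a fold of at least 1.3. The study's own gene list was made at a lower fold limit than its methods give, and it reports RAB11A as lower by less than 1.3-fold. Without replicate 1, 3 or 4 no RAB gene passed (9, 13 and 11 of 34 at an unadjusted limma p under 0.05, beside 26.8%, 30.4% and 27.6% of all genes), and of all 24230 probes 2, 38 and 0 did; without replicate 2, 6 RAB genes and 3899 probes passed. With each array centred on its median in place of loess, no RAB gene (1 of 34 at an unadjusted limma p under 0.05, beside 6.32% of all genes) and 12 of all probes passed, and the means of the 4 genes were negative there as under every other setting.

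**Figure D2:**
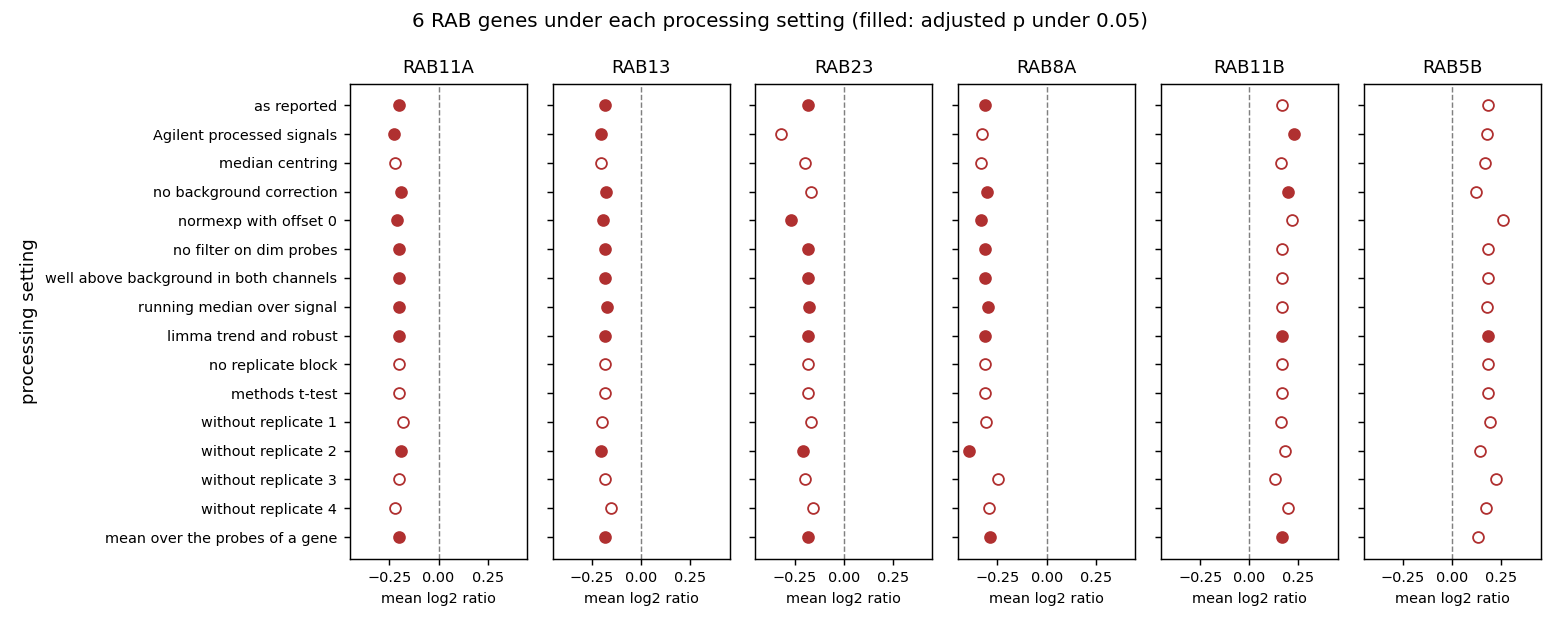
Mean log2 ratio of treated over control (x axis) of 6 RAB genes under each processing setting (y axis); filled circles have an adjusted p under 0.05. RAB8A, RAB11A, RAB13 and RAB23 stayed below 0 and RAB11B and RAB5B above 0 in every setting drawn, while the filled circles vanish with median centring, with no pairing of the channels, with the methods' t-test and without replicates 1, 3 or 4.

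The RAB genes as a group leaned to the lower side. The median of the 34 mean log2 ratios was −0.07, with a range from −0.31 to 0.18, against 0.01 over the 13692 genes tested. The mean was negative for 26 of 34 RAB genes and for 47.5% of all genes. The lean was uneven over the arrays, with 27, 24, 21 and 15 of the 34 genes negative on replicates 1 to 4, and medians of −0.11, −0.05, −0.07 and 0.04. Replicate 4 therefore did not show it. Leaving out replicate 3 moved the median to −0.04, and leaving out replicate 2 to −0.05; with replicate 1 or 4 left out it was −0.06 or −0.08. Of the 34 genes, 11 were lower on all 4 arrays and 5 higher, beside 20.3% and 23.4% of all genes. The SD over arrays had a median of 0.094 for the RAB genes and 0.093 for all genes.

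**Figure D3:**
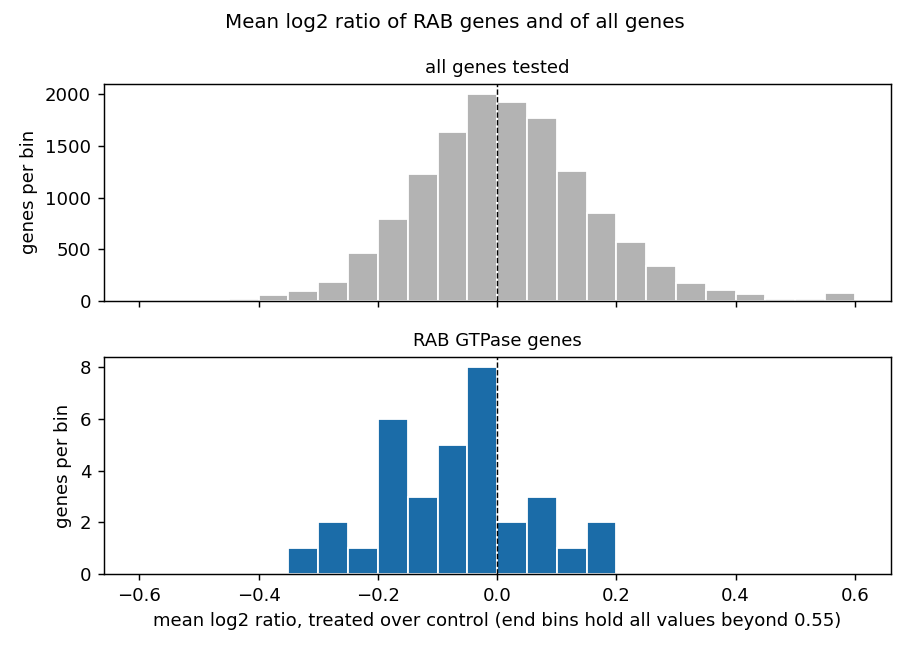
Number of genes (y axis) per bin of the mean log2 ratio over 4 arrays (x axis, bins of 0.05) for all 13692 genes tested (top) and the 34 RAB genes (bottom). The RAB genes lie between −0.31 and 0.18, with 26 of 34 below 0, while all genes spread about evenly around 0.

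Among the RABs of recycling and delivery to the plasma membrane, 8 of 9 had a negative mean, beside 47.5% of all genes. RAB8A, RAB11A and RAB13, 3 of the 9, were called lower, beside 7.16% of all genes. The group median was −0.09, and −0.06 without replicate 1 and −0.14 without replicate 3. RAB4A, which returns receptors quickly from early endosomes, had −0.06, −0.16, −0.15 and −0.27 and a mean of −0.16 ± 0.08, which missed the threshold (adjusted p = 0.056 in limma's test) and passed it with Agilent's processed signals (0.044) and with limma's trend and robust options (0.0499). RAB8B, RAB14, RAB10 and RAB35 had means of −0.09, −0.05, −0.03 and −0.01, and each had values of both signs over the arrays. RAB10 and RAB14 are known from GLUT4 traffic. RAB11B, the close relative of RAB11A, was the exception of the group, with 0.18, 0.13, 0.28 and 0.08 and a mean of 0.17 ± 0.09 (adjusted p = 0.051 in limma's test). All of its 4 values were positive, but it missed the threshold here and passed it with Agilent's processed signals (0.23, adjusted p = 0.041), without background correction (0.20, adjusted p = 0.032), with limma's trend and robust options (adjusted p = 0.0497) and when probes were averaged by gene (adjusted p = 0.048).

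Early endosomal RABs direct the first sorting of internalised receptors. Of these, 5 of 6 had a negative mean, with a group median of −0.08, and 0 passed. At an unadjusted limma p under 0.05 there were 4, beside 36.7% of all genes. The methods' t-test without adjustment gave 3, beside 28.7% of all genes. In 4 of the 6 the values had the same sign on all 4 arrays, beside 20.3% of all genes for lower and 23.4% for higher. RAB5C had 5 probes, each shifted by 1 base against the next, with means from −0.24 to −0.18. Only 1 of these passed (−0.34, −0.15, −0.27 and −0.15, adjusted p = 0.030 in limma's test), and the brightest, printed above, did not (−0.44, −0.04, −0.34 and −0.04, adjusted p = 0.099). The passing probe shares 57 of its 60 bases with the brightest one, and differs in its smaller spread over arrays (SD 0.094 against 0.21). RAB5A had a mean of −0.15 ± 0.08 (adjusted p = 0.066) and RAB22A of −0.16 ± 0.09 (adjusted p = 0.061), both below 0 on every array at their brightest probe. The other RAB5A probe, in a separate region, had −0.10, −0.22, 0.02 and 0.07 (mean −0.05, adjusted p = 0.52), and the mean over both RAB5A probes was −0.10 (adjusted p = 0.18). RAB5A and RAB22A passed with Agilent's processed signals (adjusted p = 0.045 and 0.043). At its brightest probe RAB5B was above 0 on every array without passing, with 0.15, 0.31, 0.06 and 0.21 and a mean of 0.18 ± 0.10 (adjusted p = 0.051 in limma's test). Its other 2 tested probes, elsewhere in the gene, had means of 0.16 and 0.05, and that of 0.05 was below 0 on replicates 2 and 3. RAB21 and RAB31 had means of 0.00 and −0.02.

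Among the RABs of the endoplasmic reticulum and Golgi, 6 of 9 had a negative mean, with a group median of −0.07, and 0 passed. At an unadjusted limma p under 0.05 there was 1, RAB1B, beside 36.7% of all genes. The methods' t-test without adjustment gave 0, beside 28.7% of all genes. The median was 0.00 without replicate 2 and −0.04 without replicate 3. RAB1B, which serves transport from the endoplasmic reticulum to the Golgi, had −0.63, −0.01, −0.24 and −0.28 and a mean of −0.29 ± 0.25 (adjusted p = 0.073 in limma's test; 0.030 without replicate 2). Its value of replicate 1 was by far the lowest, and that of replicate 2 was near 0. RAB6B, a RAB of Golgi traffic, had −0.62, −0.36, −0.37 and 0.25 at its brightest probe, and its 5 overlapping probes had means from −0.32 to −0.27 with adjusted p from 0.053 to 0.17. Replicate 4 was above 0 at all 5 RAB6B probes and the other 3 replicates were below. RAB1A (−0.13), RAB30 (−0.08), RAB34 (−0.07), RAB33B (−0.04), RAB2B (0.02) and RAB2A (0.06) had values of both signs. RAB18, known from the endoplasmic reticulum and lipid droplets, had 0.05, 0.07, 0.34 and 0.08 at its brightest probe (mean 0.13 ± 0.14).

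The RABs of late endosomes, lysosomes and autophagy did not lean one way: 3 of 6 means were negative, the median was 0.02, and 0 passed. At an unadjusted limma p under 0.05 there was 1, RAB38, beside 36.7% of all genes. The methods' t-test without adjustment gave 1, beside 28.7% of all genes. The median turned to −0.01 without replicate 3 or 4 and rose to 0.05 without replicate 2. RAB7A, the main RAB of late endosomes, had 0.09, 0.09, 0.11 and 0.03 at its brightest probe, a mean of 0.08 ± 0.03 (adjusted p = 0.17 in limma's test), and means from 0.06 to 0.10 over its 5 probes. RAB24, linked to autophagy, had means from 0.05 to 0.08 over 5 probes. Both were thus slightly positive at each probe, with adjusted p no lower than 0.11. RAB32 and RAB38, relatives of melanosome and lysosome-related organelle traffic, had means of 0.04 and −0.17 (RAB38 adjusted p = 0.11 in limma's test, 0.029 without replicate 2), and RAB9A and RAB39B of 0.00 and −0.06. Replicate 2 was the only array with a positive value at this RAB38 probe (0.05). The overlapping RAB38 probe had 0.04, 0.17, −0.24 and −0.15, a mean of −0.05 (adjusted p = 0.67 in limma's test). The mean over both RAB38 probes was −0.11 (adjusted p = 0.28 in limma's test).

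RAB27A, of regulated secretion, was the only tested gene of its group, with a mean of 0.00 ± 0.13 and values of both signs. The group of less defined roles held RAB23, called lower, and RAB28 and RAB40B, with means of −0.10 ± 0.05 and −0.11 ± 0.04 and adjusted p of 0.13 and 0.083 in limma's test (0.047 for RAB40B with normexp offset 0). All 3 genes lay below 0 on every array, beside 20.3% of all genes. RAB40B was well above background on 3 of 4 arrays in the treated channel; the other 75 tested probes were so on all 4 in both channels.

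RAB genes with several tested probes allow a look at agreement within a gene. There were 16 such genes with 58 probes, but these covered only 22 separate regions, and the 76 tested probes in all covered 40, so that probes of a gene are seldom independent. In 11 of the 16 genes all probes had means of 1 sign. In the other 5, RAB18, RAB21, RAB32, RAB35 and RAB39B, they had both signs, and no probe of these passed the test. The widest gap was in RAB18, whose 5 probes covered 4 regions and had means from −0.11 to 0.13, and the next in RAB21, from −0.10 to 0.08. No gene had a probe past the threshold beside one of the opposite sign.

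**Figure D4:**
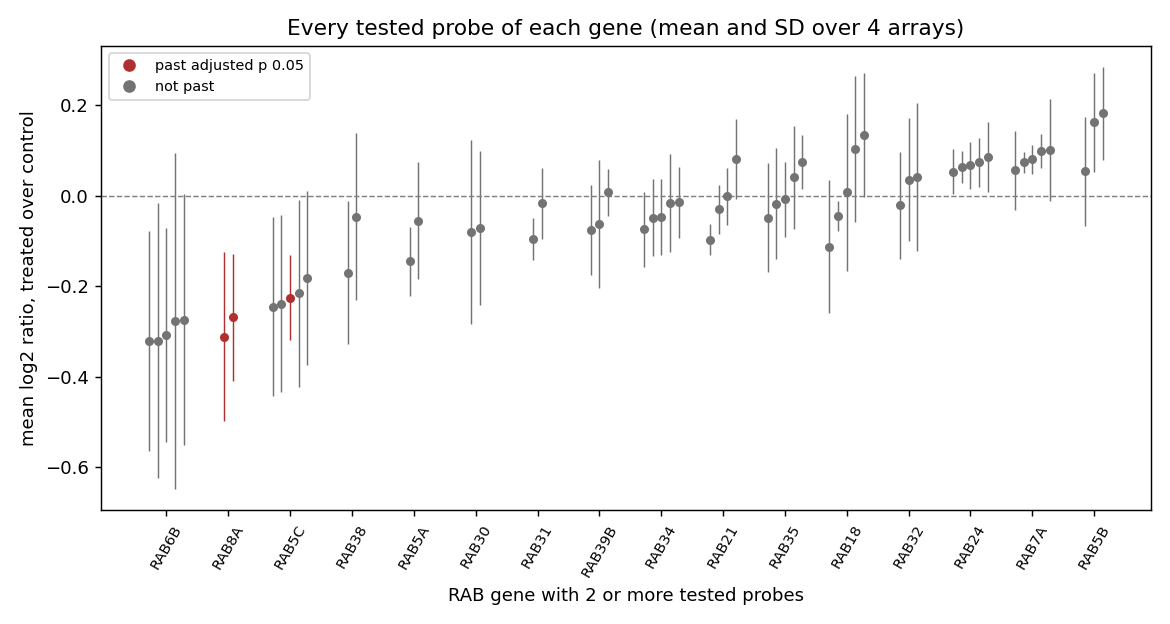
Mean log2 ratio of treated over control (y axis) with the SD over 4 arrays as bars, for each tested probe of the 16 RAB genes with 2 or more tested probes (x axis); red probes passed the test. The 5 probes of RAB6B and RAB5C all lie below 0 and those of RAB7A and RAB24 all above 0, while those of RAB18 fall on both sides.

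Relatives within the family were also compared. For 9 of 19 paralog pairs both genes were tested, and in 4 of the 9 the means had opposite signs. The difference of their log2 ratios was taken on each array and tested with an exact sign-flip permutation test (two-sided), whose smallest possible p with 4 arrays is 0.125. It could therefore not pass 0.05. RAB11A minus RAB11B was −0.43, −0.36, −0.47 and −0.21, a mean of −0.37 ± 0.11 (exact p = 0.125, adjusted over 9 pairs 0.225). RAB5B minus RAB5C was 0.59, 0.35, 0.41 and 0.25, a mean of 0.40 ± 0.14, and RAB5A minus RAB5B was −0.33 ± 0.16, each with the same exact p. At their brightest probes RAB11A and RAB11B, and RAB5B and its relatives, thus lay apart on every array. Other probes were not compared in this way. The brightest probes of RAB11B and RAB5B were dim, though well above background on all 4 arrays. Their control signals as scanned were 166 to 200 and 142 to 172, beside 1157 to 1783 for RAB11A. The mean of RAB5B was 0.12 without background correction and 0.26 with normexp offset 0. The other RAB5A probe and a further RAB5B probe, in separate regions, had values of both signs over the arrays. RAB8A minus RAB8B (−0.22 ± 0.24) and RAB22A minus RAB31 (−0.14 ± 0.11) also kept their sign on all 4 arrays. The differences of RAB1A and RAB1B, RAB2A and RAB2B, RAB5A and RAB5C, and RAB32 and RAB38 changed sign between arrays.

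**Figure D5:**
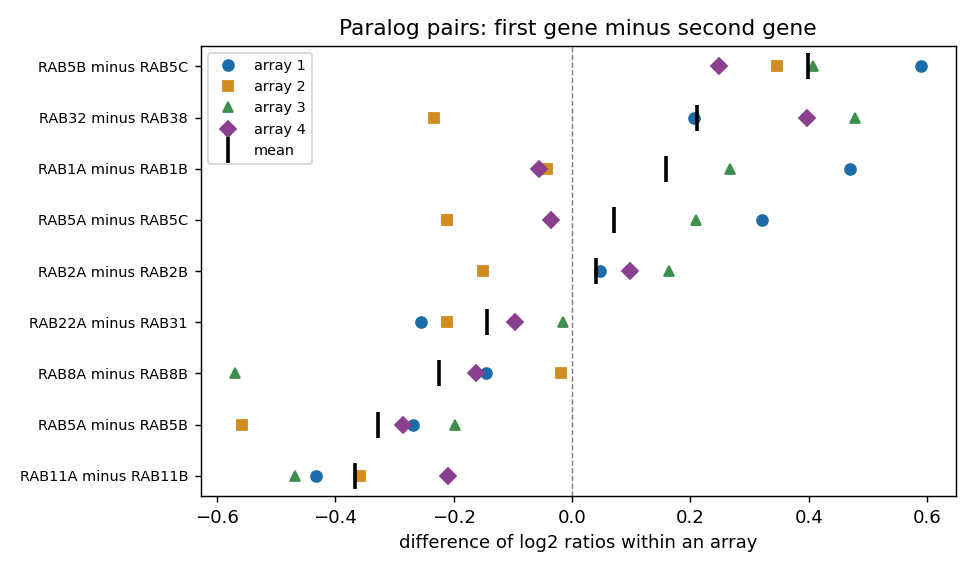
Difference of the log2 ratios of the first and the second gene of a paralog pair within an array (x axis) for 9 pairs (y axis), with a symbol for each of the 4 arrays and a black bar for the mean. The differences keep 1 sign on all 4 arrays in 5 pairs, and reach −0.37 for RAB11A minus RAB11B and 0.40 for RAB5B minus RAB5C.

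For 18 RAB genes no probe was bright enough to be tested. RAB15, RAB17, RAB19, RAB25, RAB27B, RAB33A, RAB36, RAB37, RAB39A, RAB3B, RAB3C, RAB3D and RAB43 were not well above background on any array in either channel. They include 5 of the 8 genes in the regulated secretion group, and with RAB26 and RAB3A all but RAB27A of that group went untested. RAB26, RAB3A, RAB40C, RAB4B and RAB9B were so on 1 to 3 arrays in 1 or both channels. With this filter on dim probes no difference is given for these 18 genes. Without it, a probe of RAB4B and a probe of RAB9B passed as higher (adjusted p = 0.030 and 0.034 in limma's test).

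The proteins that load, switch and read RABs were taken from 4 lists, of which 91 of 158 genes were tested; 9 were higher and 3 lower, beside backgrounds of 9.93% and 7.16% of all genes, and the median log2 ratio was 0.02. Of the delivery proteins, 0 of 7 passed. At an unadjusted limma p under 0.05 there were 4, beside 36.7% of all genes. The methods' t-test without adjustment gave 3, beside 28.7% of all genes. Among the delivery proteins, CHM, a RAB escort protein, and RABGGTB, a subunit of the enzyme that adds the prenyl groups, had means of −0.12 and −0.13. Of 28 GEF genes 3 were higher and 0 lower. At an unadjusted limma p under 0.05 there were 6, of which 2 were lower, beside 36.7% of all genes in either direction. TRAPPC3, a core subunit of the TRAPP complexes that activate RAB1 and RAB11, had a mean of 0.21 ± 0.07 (adjusted p = 0.028 in limma's test). ST5 (DENND2B), an activator of RAB13, had 0.20, 0.16, 0.26 and 0.28, a mean of 0.22 ± 0.05, and both of its probes passed. SBF1 had a mean of 0.16 ± 0.06, and Rabin8 (RAB3IP) of −0.11 ± 0.09 (adjusted p = 0.14).

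Of 22 GAP genes 1 was higher and 1 lower, beside 9.93% and 7.16% of all genes. TBC1D5, which acts on RAB7, had 0.39, 0.25, 0.50 and 0.29, a mean of 0.36 ± 0.11 (adjusted p = 0.017 in limma's test), and TBC1D22A −0.21, −0.24, −0.25 and −0.20, a mean of −0.22 ± 0.02 (adjusted p = 0.020). Each of them was the same in sign on all 4 arrays, with 1 probe. Of 34 effector genes 5 were higher and 2 lower, together 20.6%, beside 17.1% of all genes called in either direction. The 4 with the smallest p were OCRL, an inositol phosphatase recruited by several RABs (−0.18 ± 0.02), GORASP2, a Golgi stacking protein (0.22 ± 0.09), BICD1, an adaptor of dynein for RAB6 carriers (0.20 ± 0.07), and ZFYVE20 (rabenosyn-5), which binds RAB4 and RAB5 (0.18 ± 0.04). As with the RAB genes, without replicate 1, 3 or 4 none of the 91 genes passed, and without replicate 2, 6 did.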

How the data were processed

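The deposited files hold spot intensities of each channel, as scanned and extracted by the authors with Agilent Feature Extraction version 10.10.1.1, and a log10 ratio of processed red over green. The log10 ratios in the authors' series matrix were identical to these (largest difference 0, median of 0 on each array). Mean intensities were corrected with normexp (offset 50) against background medians and normalised within arrays by loess, with control spots at weight 0. Control spots and 7 to 16 gene spots per array with an outlier mark were left out. No gene spot was saturated (0). The mean log2 ratio was tested against 0 with limma version 3.58.1 in R 4.3.3 (lmFit and eBayes). P-values were two-sided and adjusted by Benjamini-Hochberg over the 24230 probes kept, with a threshold of 0.05. Precision is limited by there being only 4 arrays. The script was tested on simulated data with planted changes.

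The RAB genes, role groups, paralog pairs and regulator lists were chosen with earlier results of these data known. Values are named for each RAB gene tested, and for at most 4 members of each regulator list past the threshold with the smallest p; other list members are named for their role, chosen after their values were seen. List genes without a symbol on the array were looked up in a RefSeq gene table by accession or gene ID. Each array pairs 1 treated with 1 control culture of the same number, and the ratio keeps this pairing. Alternatives were Agilent's processed signals, median centring, no background correction, normexp with offset 0, other filters, a running median over 501 probes, limma's trend and robust options, unpaired channels, the methods' t-test, averaged probes and each replicate left out. Positions are those of the array annotation (EquCab1); exons and UTRs were not assigned.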

Additional observations from a re-analysis of the deposited data

Results flagged for a closer look

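Of 34 RAB genes examined for a replicate far from the other 3, 1 was marked, where chance would mark about 1 in 20. RAB18 had a log2 ratio of 0.34 on replicate 3, against 0.05 to 0.08 on the others.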

How the results depend on the processing

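The 4 RAB genes called lower had a negative mean under each of 15 alternatives. All 4 also passed with normexp offset 0, without a filter, with the filter on both channels, with a running median, with limma's trend and robust options and with averaged probes. RAB8A and RAB23 missed the threshold with Agilent's processed signals (adjusted p = 0.054 and 0.051 in limma's test), and RAB23 without background correction (0.063). Lower RAB probes and genes fell to 0 with median centring, with no replicate block (channels unpaired) and with the methods' t-test, and leaving out a replicate gave 0 to 11 probes and 0 to 6 genes. Without the block, RAB8A had an adjusted p of 0.051 and RAB11A of 0.084 in limma's test. Higher RAB probes numbered 2 with processed signals, 2 without background correction, 4 without a filter (RAB4B, RAB5B, RAB9B and RAB39B) and 2 with trend and robust; higher genes numbered 1, 1, 1 and 2 there, and 1 with averaged probes. At a 1.3-fold limit 1 probe passed without a filter, and 0 to 2 with a replicate left out. Regulators and effectors past the threshold fell from 12 to 0 with median centring, to 1 with no replicate block and to 0 with the methods' t-test, and to between 0 and 6 with a replicate left out. The median of the genes of less defined role moved from −0.11 to −0.23 with processed signals, −0.15 with median centring, −0.15 without background correction and −0.20 with normexp offset 0. That of the recycling genes moved to −0.21 with processed signals, and ranged from −0.14 to −0.057 with a replicate left out. RAB1A minus RAB1B moved to 0.44 with processed signals. The cause of these changes was not tested.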
